A study of Mus musculus with 12 samples.

Results

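The clustered histone genes are the members of the mouse Hist1, Hist2, Hist3 and Hist4 gene clusters, which encode the replication-dependent histones. They were taken from the deposited table of liver RNA-seq values as every symbol starting with Hist1h, Hist2h, Hist3h or Hist4h that had any read in the 12 libraries. The table listed 68 such symbols among 47263 genes, and 52 of them had a read: 6 of 6 for H1, 11 of 20 for H2A, 13 of 17 for H2B, 10 of 12 for H3 and 12 of 13 for H4. The presence of a read is what chose the members, so it is a description of the set.

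The study used whole livers of wild-type (WT) mice and of mice with a liver knockout (KO) of Sirt2, an NAD-dependent protein deacetylase. Mice of either genotype, 6 to 8 weeks old, received plasmids by hydrodynamic tail vein injection, and livers were taken 8 weeks later. One pair of groups received a GFP plasmid (WT GFP and KO GFP). The other pair (WT MET/CAT and KO MET/CAT) received 22.5 µg of pT3-EF1a-c-MET, 22.5 µg of pT3-EF1a-DN90-β-Catenin and 5 µg of the Sleeping Beauty transposase plasmid HSB2, which inserts both oncogenes into hepatocyte genomes. Each of the 4 groups had 3 libraries. Groups were read from titles. The treatment label runs with genotype and so names the other plasmid for the KO GFP and WT MET/CAT libraries. The sources used here give neither the Cre line behind the knockout nor the amount of GFP plasmid, and no label says that each library is a separate mouse, so the p-values measure only the spread between these libraries.

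Histones package DNA into nucleosomes, each with a core of H2A, H2B, H3 and H4, while H1 binds the linker DNA between them. Most clustered histone genes lack introns and are transcribed in S phase, and their mRNAs end in a conserved stem-loop bound by SLBP instead of a poly(A) tail. Some of them also yield polyadenylated mRNAs in cells that do not divide, as most hepatocytes of an adult liver do not. A library made from poly(A) RNA would capture mainly the polyadenylated forms. The sources used here do not name the library kit.

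The stem-loop carries the 3′ end of these transcripts, and it is shown here because it marks which gene models hold the non-polyadenylated end. It was searched as the 16-letter histone stem-loop consensus, on the transcript strand in GENCODE M21 transcripts (GRCm38). Of the 68 listed symbols 40 had a match, against 47 of all 55341 genes with a transcript (0.0849%). Of the 12 best covered members, 7 had a match. Their elements are printed 5′ to 3′ in capitals with 5 flanking bases on either side.
Hist1h1c: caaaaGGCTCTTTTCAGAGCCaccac
Hist3h2a: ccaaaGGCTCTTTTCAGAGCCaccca
Hist1h2be: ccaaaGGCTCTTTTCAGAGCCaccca
Hist2h3c2: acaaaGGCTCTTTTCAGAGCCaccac
Hist1h4h: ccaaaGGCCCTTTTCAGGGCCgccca
Hist1h4i: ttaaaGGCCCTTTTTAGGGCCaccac
Hist1h4c: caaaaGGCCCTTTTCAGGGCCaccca

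The elements of the H1, H2A, H2B and H3 genes were the same in all 16 letters, and those of the 3 H4 genes differed from them in the stem. That of Hist1h4i also held T in place of C in the loop. Each element lay 24 to 41 bases after the stop codon, in the 3′ UTR: at chr13:23739512-23739527 for Hist1h1c (plus strand), chr11:58955172-58955187 for Hist3h2a (plus), chr13:23585531-23585546 for Hist1h2be (minus), chr3:96238485-96238500 for Hist2h3c2 (minus), chr13:23531458-23531473 for Hist1h4h (plus), chr13:22040966-22040981 for Hist1h4i (minus) and chr13:23698089-23698104 for Hist1h4c (minus). The models of all of them ran on past the element, by 46 bases in Hist1h4h and by 1861 bases in Hist1h2be. The other 5 of the 12 (Hist1h2bc, Hist2h2be, Hist1h2bq, Hist1h4j and Hist1h4k) had no match in their models.

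The second sequence is the promoter shared by Hist1h2bq and Hist1h2br, the 2 members that separated the genotypes. The 300 bases from 250 before to 50 after the start of Hist1h2bq, at chr13:21810150-21810449 on the minus strand, were the same in all 300 positions as those of Hist1h2br at chr13:21833493-21833792 on the plus strand (RefSeq, GRCm38.p6). CCAAT, in either direction, is in capitals.
Hist1h2bq and Hist1h2br: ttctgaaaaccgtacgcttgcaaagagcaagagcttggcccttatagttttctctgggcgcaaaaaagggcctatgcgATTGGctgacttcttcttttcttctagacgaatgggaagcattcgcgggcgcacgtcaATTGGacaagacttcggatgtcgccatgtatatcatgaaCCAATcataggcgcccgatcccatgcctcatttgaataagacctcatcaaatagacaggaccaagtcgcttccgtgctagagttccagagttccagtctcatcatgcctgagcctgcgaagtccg

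RefSeq promoters were matched for 59 of the 68 symbols. CCAAT on either strand was present in 6 of 6 H1, 17 of 17 H2A, 14 of 14 H2B and 10 of 10 H3 promoters but in 3 of 12 H4 promoters, against 37.4% of all 32851 RefSeq promoters of that length. The octamer ATTTGCAT on either strand, known from H2B promoters, was present in 6 of 14 H2B and 7 of 17 H2A promoters and in none of the H1, H3 or H4 promoters, against 1.74% of all. The promoter shared by Hist1h2bq and Hist1h2br held no octamer. A match describes letters in this window only.

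Libraries held 18208879 to 24352961 recovered reads, and 1 read was worth 0.753 to 1.20 normalized units, so a gene with 0 reads in a library has an upper limit of 2.26 to 3.61 units (3 reads, counting error only). Sirt2 was at 126 to 248 normalized reads in the 6 KO libraries and at 726 to 1068 in the 6 WT libraries, without overlap. The hepatocyte markers Alb, Apoa1 and Ttr were high in every library. On the first principal component all 3 KO GFP libraries lay lowest, replicate 3 at -88.95 and replicates 1 and 2 at -33.18 and -31.95. The libraries of the other groups lay between -15.53 and 52.78.

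The clustered histone genes held 2313 to 5205 reads per library. Of their 43940 reads, 27026 (61.5%) came from Hist1h2bc and 12943 from Hist1h1c, and the other 50 genes shared 3971 reads (9.04%). By class H2B had 63.2% of the reads, H1 29.9%, H4 5.21%, H3 1.09% and H2A 0.612%. A nucleosome holds the 4 core histones in equal number, but these shares do not measure that proportion. They are not corrected for gene length and leave out histone genes outside the clusters. Of the 52 members 16 had under 10 reads in all 12 libraries together, and 4 had 1 read.

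**Figure D1:**
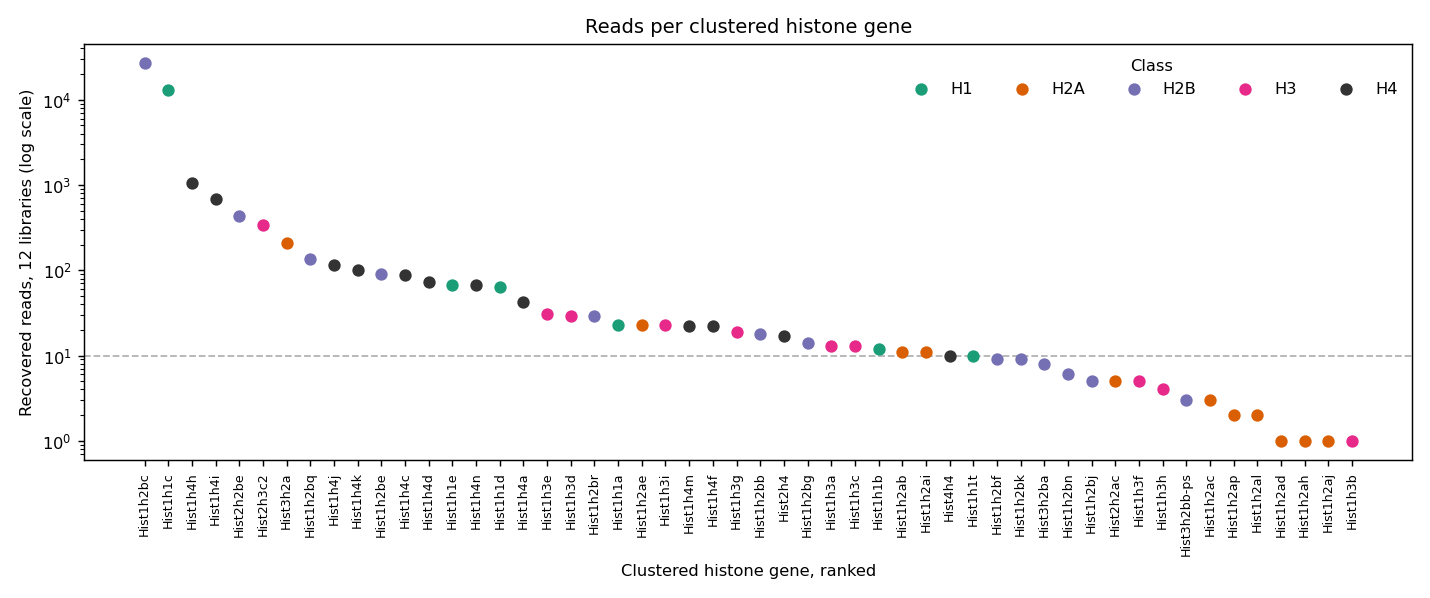
Recovered reads summed over the 12 libraries (log scale) for each of the 52 clustered histone genes with any read, ranked, with colour for histone class. The dashed line marks 10 reads. Hist1h2bc (27026 reads) and Hist1h1c (12943) stand above all others, and 16 genes lie below the line.

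The test across genes kept the 13871 genes that reached 10 normalized reads in 3 or more libraries. Of the 52 members 12 passed: Hist1h1c for H1, Hist3h2a for H2A, Hist1h2bc, Hist1h2be, Hist1h2bq and Hist2h2be for H2B, Hist2h3c2 for H3, and Hist1h4c, Hist1h4h, Hist1h4i, Hist1h4j and Hist1h4k for H4. The members just inside the filter were Hist1h4c with 89 reads, Hist1h2be with 90 and Hist1h4k with 102. Those just outside were Hist1h4d with 73 reads, Hist1h1e and Hist1h4n with 68 each, and Hist1h1d with 64. The 40 members that had reads but did not pass had 1 to 73 reads each. A gene can pass through the groups where it is high. Hist1h2bq reached 10 in 6 KO libraries and in 0 WT libraries, so the 12 are not a sample of the 52.

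The gene models of the 12 were longer. The median longest transcript was 1088 bases for the 12 that passed, 536.5 bases for the 40 with fewer reads and 421.5 bases for the 16 without a read. The polyadenylation signal AATAAA lay in the last 50 bases of a model in 6 of 12, 7 of 40 and 2 of 16, against 36.5% of all genes. The stem-loop was in 7 of 12, 27 of 40 and 6 of 16. Sequence shared with other genes also ran with level. The median share of 50-base stretches found in no other gene was 70.2% for the 12, 48.1% for the 40 and 15.7% for the 16, and the sources used here do not say how reads with several matches were counted. All 20 H2A genes had exons overlapped on the opposite strand by another annotated gene, against 0 of 6 H1 genes and 1 gene each in H2B, H3 and H4. Nor do they say whether strand was used, so a low H2A count cannot be told apart from reads set aside as ambiguous.

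**Figure D2:**
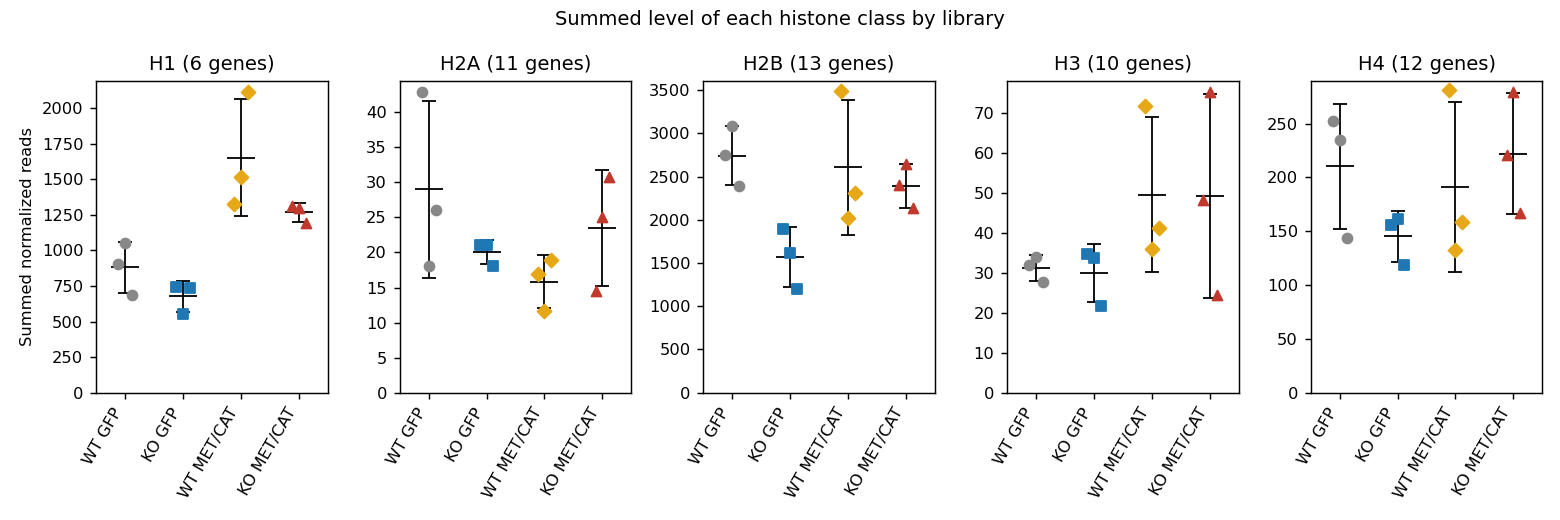
Summed normalized reads (linear scale from 0) of the members of each histone class in each library, with the group mean as a line and bars for ± SD (n = 3). H1 sums in the 6 MET/CAT libraries lie above those in the 6 GFP libraries, and H2B sums are lowest in the 3 KO GFP libraries.

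H1 linker histones were represented almost wholly by Hist1h1c, which encodes the H1.2 subtype and held 98.7% of the class reads (chr13:23738808-23740367, 1 exon). Its normalized values were 893, 1045 and 679 in WT GFP, 739, 540 and 720 in KO GFP, 1302, 1494 and 2086 in WT MET/CAT, and 1309, 1265 and 1176 in KO MET/CAT. The 6 MET/CAT values were all above the 6 GFP values, and the genotypes overlapped under either plasmid. Group means were 872 ± 184, 666 ± 110, 1627 ± 409 and 1250 ± 67.7 (SD, n = 3) in that order. The share of all genes in which the 6 MET/CAT libraries lay above the 6 GFP libraries was not counted. Within 1 genotype, 10.5% of all tested genes in WT and 14.4% in KO were higher with MET/CAT without overlap. In the model of all 12 libraries the log2 difference of MET/CAT against GFP was 0.89 ± 0.22 (SE) in WT (limma, adjusted p = 0.0897) and 0.92 ± 0.22 in KO (limma, adjusted p = 0.0599). Neither passed the threshold of 0.05 over 13871 genes. Without WT MET/CAT replicate 1 the difference in WT passed it (limma, adjusted p = 0.0365). The difference between genotypes was -0.38 under GFP (limma, adjusted p = 0.394) and -0.35 under MET/CAT (limma, adjusted p = 0.708). The summed H1 level was 1.88 times as high with MET/CAT as with GFP in WT and 1.87 times in KO. The summed level of 5 neutrophil markers also differed by plasmid, at 62.8 to 147 (WT GFP) and 40.7 to 77.8 (KO GFP) against 300 to 905 in WT MET/CAT and 347 to 2908 in KO MET/CAT, with reads of all 5. Its part in the level of Hist1h1c was not tested.

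The other 5 H1 genes had 10 to 68 reads each. Hist1h1e and Hist1h1d, which encode the somatic subtypes H1.4 and H1.3, had 0 to 18.8 and 0 to 21.1 normalized reads per library. The highest values were in KO MET/CAT replicate 2 for Hist1h1e and in WT MET/CAT replicate 3 for Hist1h1d, with the other 2 libraries of those groups at 0 to 8.49 and 2.11 to 3.99. Of Hist1h1a, 19 of its 23 reads came from WT MET/CAT replicates 1 and 2. Hist1h1b had 12 reads, and the testis subtype Hist1h1t had 10. Counting every H1 gene without a filter, 5 of 6 were higher with MET/CAT in each genotype. The exception was Hist1h1t in WT and Hist1h1d in KO. Of all 24243 genes with a read, 10589 were higher in WT and 12000 in KO. The median log2 difference of H1 was 0.96 in WT and 0.73 in KO against 0 and 0 for those genes. Only Hist1h1c passed the filter, so these counts rest mostly on few reads and do not show a rise of the whole class.

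H2A was the sparsest class, with 269 reads from 11 genes, of which Hist3h2a held 77.7%. Hist3h2a lies at chr11:58954685-58956830, apart from the main cluster, and its exon is overlapped by Trim17 on the same strand. Its normalized values were 30.9, 18.1 and 24.3 in WT GFP, 20.3, 15.4 and 4.52 in KO GFP, 14.0, 3.16 and 18.9 in WT MET/CAT, and 14.5, 19.9 and 22.3 in KO MET/CAT. Values of all 4 groups overlapped. The largest log2 difference was -1.21 ± 0.66 for MET/CAT against GFP in WT (limma, adjusted p = 0.416). The sign of the genotype difference was negative under GFP (-1.0) and positive under MET/CAT (0.87), an interaction of 1.87 ± 0.93 that did not pass the test (limma, adjusted p = 0.343).

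The next H2A genes were Hist1h2ae with 23 reads and Hist1h2ab and Hist1h2ai with 11 each. All 11 reads of Hist1h2ai came from KO GFP replicate 3. The 9 H2A symbols with no read included both copies of Hist2h2aa, whose 50-base stretches were all shared with other gene models.

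H2B was carried by Hist1h2bc, which held 97.3% of its reads and was the most abundant clustered histone gene per length, at 1960 normalized reads per kilobase against 708 for Hist1h1c and 187 for Hist1h4h. It lies at chr13:23684199-23692908, and its annotated transcript has 2 exons, unlike the usual single-exon histone gene. Its values were 2718, 3038 and 2343 in WT GFP, 1823, 1532 and 1113 in KO GFP, 3399, 1963 and 2243 in WT MET/CAT, and 2354, 2588 and 2068 in KO MET/CAT. Each KO GFP value lay below all 9 values of the other groups, which overlapped one another. The share of all genes with such a separation was not counted. Against WT GFP alone, 13% of all tested genes were lower in KO GFP without overlap. The log2 difference of KO against WT under GFP was -0.88 ± 0.23 (limma, adjusted p = 0.272), and that of MET/CAT against GFP in KO was 0.67 ± 0.23 (limma, adjusted p = 0.145). Under MET/CAT the genotypes differed by -0.08 (limma, adjusted p = 0.938), and the interaction was 0.80 ± 0.33 (limma, adjusted p = 0.288). None of these passed the threshold.

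Marker sums of macrophages and Kupffer cells and of erythroid cells were, like Hist1h2bc, lower in each KO GFP library than in all other libraries. The summed level of 9 macrophage and Kupffer cell markers was 1379 to 4225 in KO GFP, against 6934 to 9750 in WT GFP, 5762 to 8240 in WT MET/CAT and 6417 to 8794 in KO MET/CAT, and all 9 genes had reads. The summed level of 4 erythroid markers was 4809 to 6224 in KO GFP, against 7730 to 21051 in WT GFP. It was 10889 to 32108 in WT MET/CAT and 7121 to 20552 in KO MET/CAT. Under GFP 3 of these 4 genes were lower in KO and 1 was higher. The part of either set in the level of Hist1h2bc was not tested. In whole liver, fewer cells of a type and less RNA per cell cannot be told apart.

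Hist2h2be, an H2B gene of the Hist2 cluster (chr3:96221119-96223738) with no 50-base stretch in common with another gene, had 430 reads. Its values were 19.9, 23.8 and 42.4 in WT GFP, 33.1, 29.8 and 48.8 in KO GFP, 55.8, 39.0 and 48.9 in WT MET/CAT, and 25.3, 18.8 and 37.2 in KO MET/CAT. The genotypes did not overlap under MET/CAT, where KO was lower by a log2 difference of -0.84 ± 0.41 (limma, adjusted p = 0.643), and they overlapped under GFP, where the difference was 0.40. The interaction of -1.24 ± 0.58 did not pass the test (limma, adjusted p = 0.322). Hist1h2be, whose model overlaps Hist1h1e on the same strand, had 3 to 21 reads per library, with group means of 4.04 to 11.6 normalized reads.

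**Figure D3:**
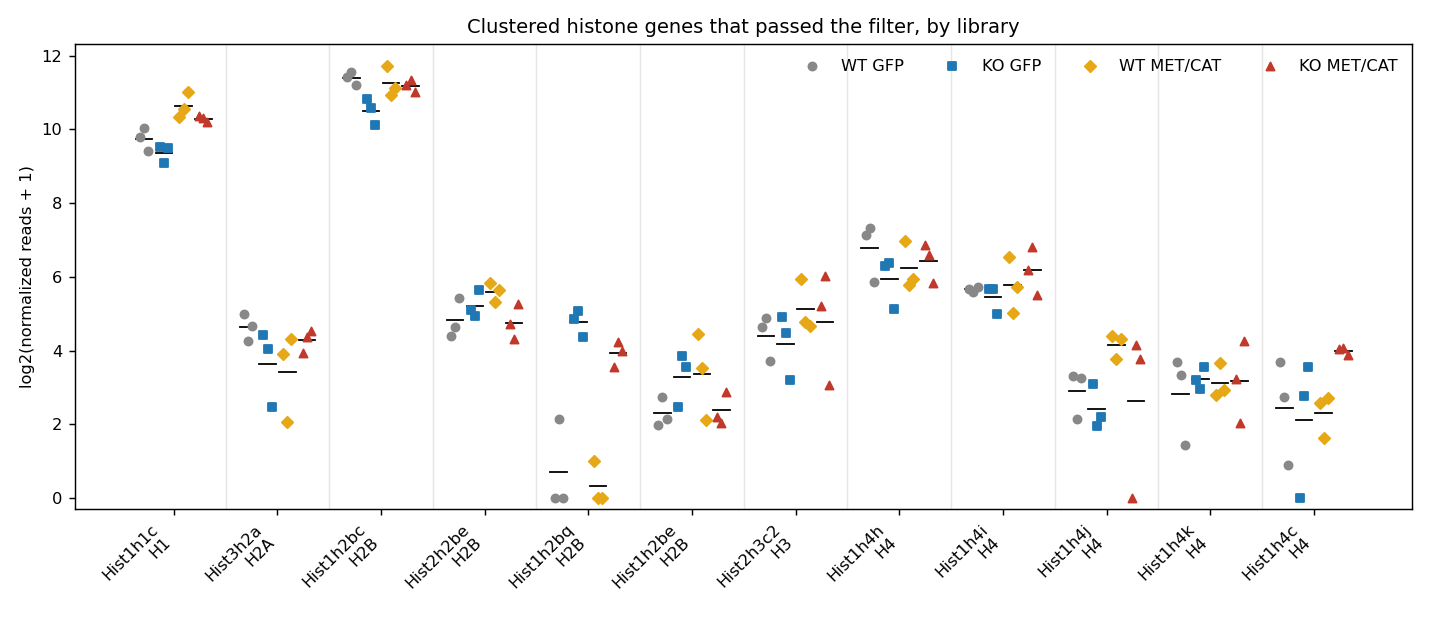
Level of the 12 clustered histone genes that passed the filter, as log2(normalized reads + 1), in each library, with the group mean as a short line. Hist1h2bq separates the 6 KO libraries from the 6 WT libraries, and Hist1h1c separates the 6 MET/CAT libraries from the 6 GFP libraries.

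Of the 52 members, Hist1h2bq and its neighbour Hist1h2br were the 2 whose reads separated the genotypes over both plasmids. The share of all genes with a read that did so was not counted. Among the 13871 tested genes, which leave out Hist1h2br, 0.123% were higher in KO without overlap and 0.26% lower. Hist1h2bq had 0, 3 and 0 reads in WT GFP, 37, 34 and 22 in KO GFP, 1, 0 and 0 in WT MET/CAT, and 9, 17 and 14 in KO MET/CAT. All 6 KO libraries lay above all 6 WT libraries. In normalized reads the group means were 1.13 ± 1.96, 26.8 ± 6.45, 0.332 ± 0.576 and 14.5 ± 3.49 (SD, n = 3). From the summed reads KO was 27.1 times WT under GFP (95% interval 8.99 to 134, from 93 and 3 reads) and 41.8 times under MET/CAT (7.08 to 1692, from 40 and 1 reads). These intervals cover counting error only. On the log2(value + 1) scale the differences were 4.06 ± 0.77 (limma, adjusted p = 0.145) and 3.6 ± 0.77 (limma, adjusted p = 0.495), neither past the threshold. The average of the 2 genotype differences, a comparison added after the values were seen, was 3.83 ± 0.54 (limma, adjusted p = 0.0454). In that comparison 2 of 13871 genes passed, Sirt2 and Hist1h2bq (0.0144%), and 3 of the 12 members had an unadjusted p under 0.05 against 8.11% of all genes. Since Hist1h2bq passed the filter through KO libraries alone, and the comparison was chosen on these values, its adjusted p and these shares are a description and not a test. The value also depended on the settings: it missed the threshold with a pseudocount of 0.5 (limma, adjusted p = 0.099), in edgeR on recovered reads (adjusted p = 0.0738), and in 10 of 12 fits that left out 1 library (limma, adjusted p up to 0.329), the exceptions being the fits without replicate 2 of WT GFP or replicate 3 of WT MET/CAT.

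Hist1h2br is a near-identical neighbour of Hist1h2bq on the opposite strand. The genes lie at chr13:21806612-21810197 and chr13:21833743-21837530, and 97.3% of the 50-base stretches of Hist1h2bq occur in Hist1h2br too. Hist1h2br had 5, 6 and 3 reads in KO GFP, 6, 7 and 2 in KO MET/CAT, and none in any WT library. It was too low for the filter. Against a floor of 3 reads over the WT group, KO was at least 4.08-fold higher under GFP, at least 5.22-fold higher under MET/CAT and at least 9.18-fold higher over both plasmids. Because the sequences are shared, the reads of these genes may be split between them in either direction, and their counts are not independent of each other. Both have models of up to 3 exons with AATAAA near the end and no stem-loop.

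**Figure D4:**
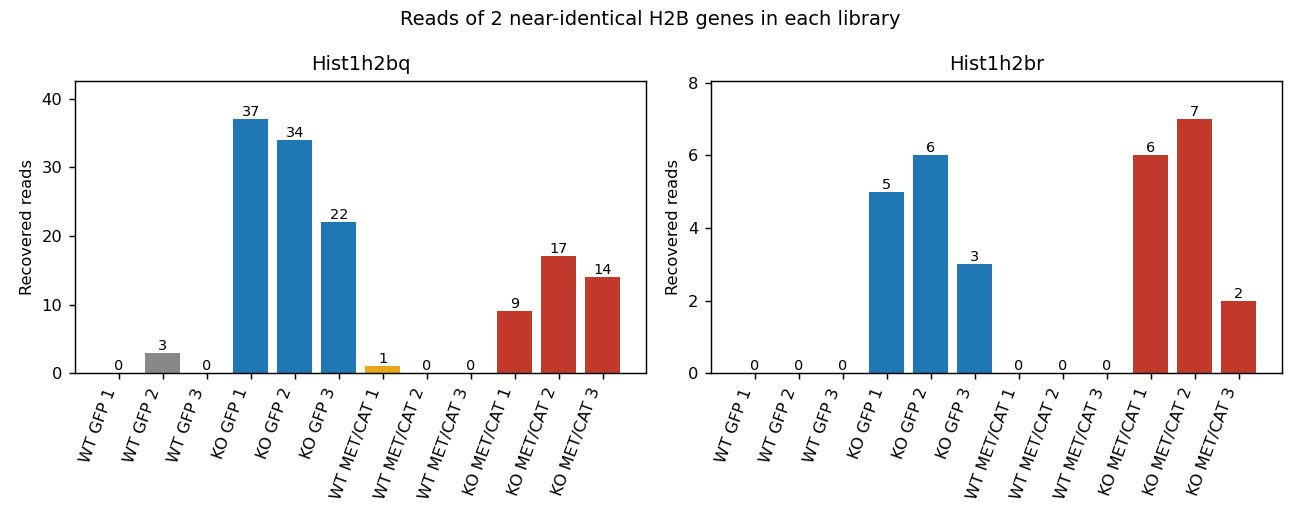
Recovered reads of Hist1h2bq and Hist1h2br in each of the 12 libraries (bars from 0, number of reads above each bar, with a separate scale for each gene). Every KO library has reads of both genes (9 to 37 and 2 to 7), and the WT libraries have 0 to 3 and 0.

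Among the KO livers Hist1h2bq was lower with MET/CAT than with GFP, without overlap, at 0.548 times (0.368 to 0.802, from 40 and 93 reads). The interval covers counting error only, and the log2 difference of -0.84 did not pass the test (limma, adjusted p = 0.557). Hist1h2br had similar reads under both plasmids, 14 with GFP and 15 with MET/CAT. The remaining 8 H2B genes had 3 to 18 reads each. Hist1h2bg, for example, had no read in KO GFP and 1, 3 and 3 in KO MET/CAT, but also 6 in WT MET/CAT replicate 3.

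H3 had 477 reads, and Hist2h3c2 held 71.1% of them (chr3:96238108-96239127, 63.5% of its 50-base stretches shared with the gene model Gm20634). Its values were 23.9, 28.3 and 12.1 in WT GFP, 29.4, 21.1 and 8.14 in KO GFP, 60.8, 26.4 and 24.5 in WT MET/CAT, and 36.1, 63.8 and 7.43 in KO MET/CAT. The 4 groups overlapped, and the spread within KO MET/CAT exceeded every difference between group means. The log2 differences ranged from -0.36 to 0.72, and the smallest adjusted p of the 4 comparisons was 0.674 (limma).

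The other 9 H3 genes had 1 to 31 reads. Hist1h3e had 3, 6 and 6 reads in KO MET/CAT against 0, 2 and 0 in WT MET/CAT, a ratio of 7.84 (1.82 to 70.6). Hist1h3g had 0, 2 and 0 reads against 3, 6 and 4 in those groups, a ratio of 0.161 (0.0176 to 0.710). Hist1h3a had 1, 1 and 4 reads in WT GFP and 4, 1 and 2 in KO MET/CAT and none in the other 6 libraries, so its genotype difference took opposite signs under the 2 plasmids. The intervals are from reads summed over libraries and cover counting error only, and these counts are too low for a test across genes.

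H4 had 2290 reads from 12 genes and the most even spread of any class. Hist1h4h held 45.6% and Hist1h4i 684 reads. Hist1h4h (chr13:23531050-23531519) had values of 141, 159 and 57.2 in WT GFP, 78.3, 81.6 and 34.4 in KO GFP, 125, 53.8 and 61.2 in WT MET/CAT, and 116, 95.2 and 56.3 in KO MET/CAT. Replicate spread was wide and all groups overlapped. The log2 difference of KO against WT was -0.83 ± 0.48 under GFP (limma, adjusted p = 0.390) and 0.20 under MET/CAT (limma, adjusted p = 0.927). Hist1h4i (chr13:22040636-22041362) had values of 49.9, 47.6 and 52.0 in WT GFP, 50.4, 49.9 and 30.7 in KO GFP, 92.7, 31.6 and 52.3 in WT MET/CAT, and 72.3, 112 and 44.6 in KO MET/CAT. It differed by 0.73 ± 0.43 between MET/CAT and GFP in KO (limma, adjusted p = 0.355).

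Hist1h4c was at 15.7, 15.7 and 13.8 in KO MET/CAT and below that in every other library, the highest of which was WT GFP replicate 1 at 12. How many of all genes set KO MET/CAT apart in this way was not counted. Its log2 difference of MET/CAT against GFP in KO was 1.89 ± 0.95 (limma, adjusted p = 0.278) and that of KO against WT under MET/CAT was 1.69 ± 0.95 (limma, adjusted p = 0.672). Hist1h4j was higher with MET/CAT than with GFP in WT, at 19.9, 12.7 and 18.9 against 8.98, 3.40 and 8.66, without overlap. The log2 difference of 1.25 ± 0.94 did not pass the test (limma, adjusted p = 0.567), and KO MET/CAT replicate 1 had 0 reads of this gene. Hist1h4k, which shares 71.1% of its 50-base stretches with Hist1h4a, differed by at most 0.42 between any groups compared. Of the low H4 genes, Hist4h4 had 10 reads, 6 of them in KO MET/CAT replicate 3.

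**Figure D5:**
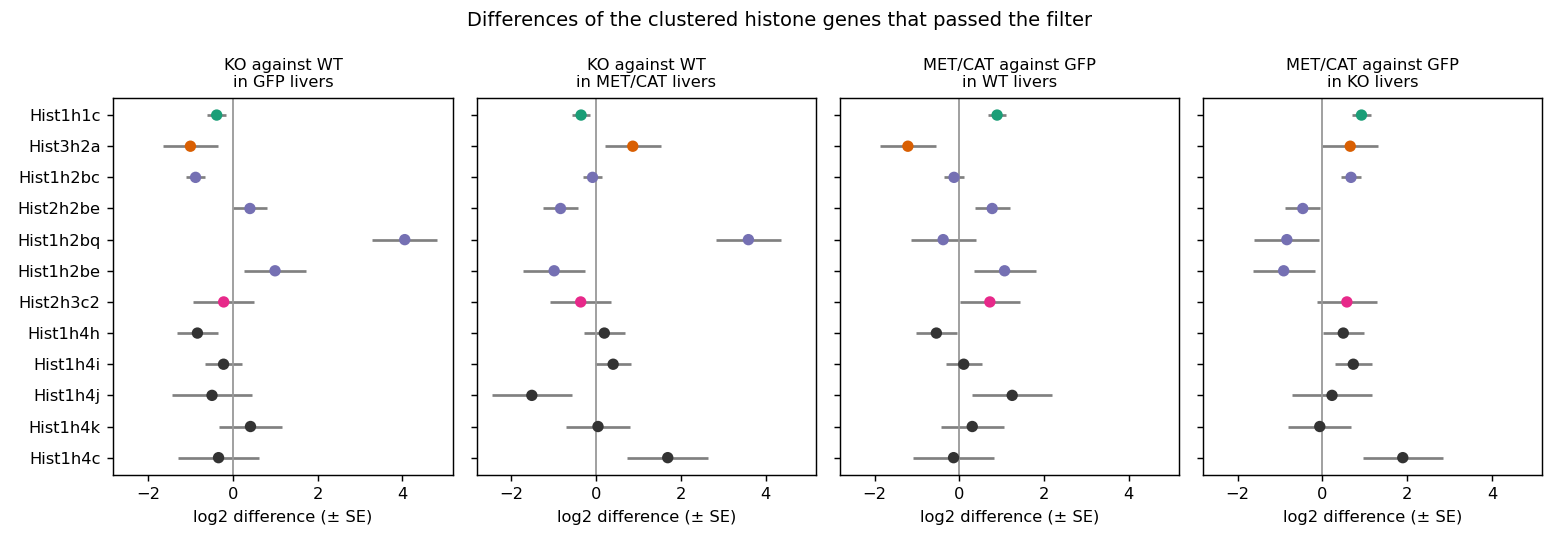
Log2 differences with bars for ± SE of the 12 members that passed the filter, in the 4 comparisons between groups, coloured by class as in the plot of ranked reads. Hist1h2bq lies at 4.06 and 3.6 in the genotype comparisons, and Hist1h1c lies at 0.89 and 0.92 in the plasmid comparisons.

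Counted over the 12 members tested, none passed the threshold in any of the 4 comparisons. For KO against WT under GFP, 1 of all 13871 genes passed (0.00721%), and 2 of the 12 members had an unadjusted p under 0.05 against 15.5% of all genes. For KO against WT under MET/CAT, 1 gene passed (0.00721%), and 1 member was under 0.05 against 7.76%. For MET/CAT against GFP, 47 genes passed in WT (0.339%) and 174 in KO (1.25%), and 1 and 2 members were under 0.05 against 14.8% and 20.3%. For the interaction no gene passed, and 2 members were under 0.05 against 15.5%. The shares among the members were close to those of all genes. A DESeq2 fit called 1 of the 12 in each of 3 comparisons: Hist1h2bq for KO against WT under MET/CAT, where it called 0.245% of all genes, and Hist1h1c for MET/CAT against GFP in WT (4.17% of all genes) and in KO (6.69%). The edgeR fit called none. A limma fit that weights libraries by their quality called 4 of the 12 for KO against WT under GFP, where it called 33% of all genes, and 3 and 2 of the 12 for MET/CAT against GFP in WT (18.9%) and KO (11.8%). Since Hist1h2bq passed the filter through KO libraries alone, its calls and its place in the genotype counts are a description and not a test.

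Groups did not overlap for 2 and 3 of the 12 members between genotypes (GFP and MET/CAT) and for 2 and 4 between plasmids (WT and KO), against 22.1%, 13.8%, 20.7% and 25% of all tested genes. Under GFP the genotypes separated for Hist1h2bq (higher in KO) and Hist1h2bc (lower), with 9.15% of all tested genes higher and 13% lower without overlap. Under MET/CAT they separated for Hist1h2bq and Hist1h4c (higher in KO) and Hist2h2be (lower), with 6.82% and 7.01% for all genes. The plasmids separated in WT for Hist1h1c and Hist1h4j (higher with MET/CAT; 10.5% of all genes) and for none with lower values (10.3%). In KO they separated for Hist1h1c, Hist1h2bc and Hist1h4c (higher; 14.4%) and Hist1h2bq (lower; 10.7%). Over both plasmids, with 6 libraries against 6, Hist1h2bq was the only one of the 12 whose genotypes separated, and none was lower, where 0.123% of all genes were higher in KO without overlap and 0.26% lower (0.382% in either direction). The filter bears on the separations under single conditions too, and not only for Hist1h2bq, as given above. Hist1h4c reached 10 in 5 libraries, among them every KO MET/CAT library. Hist1h4j reached 10 in 5 libraries, all of them MET/CAT, and its highest GFP value was 8.98. The separations of these 3 genes are a description and not a test. The median log2 difference over all 52 members was -0.12 for KO against WT under GFP, -0.04 under MET/CAT, 0 for MET/CAT in WT and 0.01 in KO, against -0.03, 0, 0 and 0 for all genes with a read.

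Genes that work with the clustered histones were summarised from lists chosen with earlier results of these data known. The 12 replacement histones (such as H3f3a, H3f3b, H2afz and H1f0), which are made outside S phase from polyadenylated mRNAs, summed to 12777 to 13654 normalized reads in WT GFP, 9812 to 12169 in KO GFP, 11677 to 15214 in WT MET/CAT and 13417 to 14110 in KO MET/CAT. None of the 11 tested was called in any comparison. The H2A gene H2afj had the largest genotype difference of them under GFP, with a mean of 1042 ± 342 in WT and 265 ± 183 in KO, a log2 difference of -2.18 ± 0.42 (limma, adjusted p = 0.145).

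None of 17 tested genes of histone mRNA processing, which include the stem-loop binding protein Slbp, was called, and none of 19 histone chaperones. Their medians lay between -0.21 and 0.22 in the 4 comparisons. Of 29 S phase genes, 2 were called lower with MET/CAT than with GFP in WT: the replication initiation factor Mcm10 (log2 difference -2.98, limma, adjusted p = 0.00887) and the replication licensing inhibitor Gmnn (-1.87, limma, adjusted p = 0.0324). In that comparison 18 of all 13871 genes were called lower. Without WT GFP replicate 1 the fit called 1 gene lower among all genes, and without WT GFP replicate 2 it called 2. The S phase list was at medians of 0.84 and 0.32 for KO against WT under GFP and MET/CAT, and of -0.40 and -0.84 for MET/CAT against GFP in WT and KO. Of 21 tested G2 and mitosis genes none was called, with medians of 1.18, -0.11, 0.61 and -0.72 in the same order. The medians of all tested genes were -0.07, -0.002, -0.01 and 0.05.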

How the data were processed

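RNA-seq of 12 mouse liver libraries in 4 groups of 3 was analysed from 1 table of normalized values. The submitters' processing notes name HISAT2 2.0.4, HTSeq 0.11.2 and the genome build GRCm38. The authors deposited a signal per gene that behaves as gene counts divided by 1 factor per library, as read from the values. The sources used here do not name the normalization tool, library kit, strand setting or treatment of reads with several matches. Whole reads were recovered from the step of each library, and 100% of values came out within 0.01 of a whole number. In both WT groups the step of replicate 1 lies close to 1 (0.997 units per read), where this check is weak.

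Genes at 10 or more in at least 3 libraries were tested with limma 3.58.1 (mean-variance trend) on log2(value + 1), in 1 model of 4 group means, with Benjamini-Hochberg adjustment over 13871 genes and a threshold of 0.05. The average of both genotype differences was added after the values were seen. Alternatives included edgeR 4.0.16 and DESeq2 1.42.0 on the recovered reads. Read ratios carry exact 95% intervals for counting error. The fit was tested on simulated data. Members and lists were chosen with earlier results of these data known. Named were the 3 highest members of each class, those called, and the 5 (interaction: 3) with the smallest p in a comparison. Those with few reads are given by reads. From each companion list, the genes with the smallest p could be named.

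Gene models are from GENCODE M21 and promoters from RefSeq (GRCm38.p6). Replicates differed by 37.8 to 232 chi-square per degree of freedom, so none was a duplicate.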

Additional observations from a re-analysis of the deposited data

How the results depend on the processing

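All 140 alternative values of the class ratios stayed within 1 SD of the reported value, where the SD is the spread between replicate libraries. For each ratio 6 of the 7 alternatives left out 1 library. Leaving out 1 of 3 libraries moves a group mean by less than 1 SD. This check could therefore hardly fail and is not evidence of stability. Some ratios near 1 crossed it when 1 library was left out. For KO against WT under MET/CAT, H3 (0.994) ran from 0.732 to 1.28 and H2B (0.918) from 0.825 to 1.11. For MET/CAT against GFP in WT, H4 (0.909) ran from 0.694 to 1.05. Of 508 alternative values of member differences, 481 kept sign and side of the threshold, and 1 reversed: Hist1h4c, KO against WT averaged over plasmids, went to -0.57 with library quality weights.

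Counts of all genes called moved as follows, and the cause was not tested. For KO against WT under GFP (1 gene) DESeq2 called 121, library quality weights 4575, the replicate block 7 and the 6 libraries alone 0. For KO against WT under MET/CAT (1) DESeq2 called 34 and weights 2. For MET/CAT in WT (47) equal library totals gave 71, quantile normalization 81, edgeR 73, DESeq2 578 and weights 2615. For MET/CAT in KO (174) DESeq2 gave 928, weights 1635 and the 6 libraries alone 86. For the interaction (0) DESeq2 gave 169, the replicate block 2 and weights 1374. For KO against WT averaged over plasmids (2) a pseudocount of 0.5, a mean filter of 10, edgeR and the replicate block each gave 1, DESeq2 39 and weights 160. Leaving out 1 library gave 1 to 10, 0 to 12, 3 to 373, 48 to 267, 0 to 4 and 1 to 11 genes in that order.

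Of the clustered histones, the averaged comparison called 1, and 0 with a pseudocount of 0.5, the mean filter, edgeR or the replicate block. DESeq2 called 1 in KO against WT under MET/CAT, 1 in MET/CAT in WT and 1 in MET/CAT in KO. Weights called 4 under GFP, 3 in MET/CAT in WT, 2 in MET/CAT in KO and 1 in the interaction. Leaving out 1 library gave 0 to 1 in MET/CAT in WT (1 without WT MET/CAT replicate 1), in MET/CAT in KO (1 without WT MET/CAT replicate 1 or 3) and in the averaged comparison, where the adjusted p of Hist1h2bq stayed under 0.05 without WT GFP replicate 2 or WT MET/CAT replicate 3. Among same-numbered libraries 5 of 18 correlations of deviations exceeded 0.1 (-0.20 to 0.28). The highest were WT GFP 2 with KO GFP 2 (0.28) and WT GFP 3 with KO GFP 3 (0.26). Differently numbered pairs ran from -0.29 to 0.19. Deviations within a group of 3 sum to 0, so this check cannot decide whether same-numbered libraries shared a batch or day. With 1 to 73 reads, the 40 members outside the filter can show only large differences.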

Other observations

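The difference of Hist1h2bq between genotypes was set beside its neighbours on chromosome 13, a window chosen after the values were seen. Within 500 kb on either side of Hist1h2bq and Hist1h2br, 11 other genes passed the filter, among them the histone genes Hist1h4i, Hist1h4j and Hist1h4k. None was called for KO against WT averaged over plasmids (limma, lowest adjusted p = 0.660), 0 had an unadjusted p under 0.05, and their log2 differences ran from -1.43 to 0.23 against 3.83 for Hist1h2bq. In none of them did the 6 KO libraries separate from the 6 WT libraries.

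Single libraries held a large share of the reads of several low members, of which 4 are given here as examples. KO GFP replicate 3 had all 11 reads of Hist1h2ai and 11 of 23 reads of Hist1h3i. KO MET/CAT replicate 2 had 19 of 42 reads of Hist1h4a, and WT GFP replicate 3 had 10 of 13 reads of Hist1h3c.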
